A study of Mus musculus with 6 samples.

Results

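Lipoprotein genes that have been reported as targets of the bile acid receptor FXR were followed in mouse hepatocytes exposed to an FXR agonist. The 10 genes are the apolipoprotein genes Apoa1, Apoa5, Apoc2, Apoc3 and Apoe, the lipid transfer gene Pltp, the assembly gene Mttp and the surface receptor genes Vldlr, Sdc1 and Scarb1. They were chosen by symbol, each was read from the probe set that the platform annotation pairs with that symbol alone, and all 10 were found among 22180 genes. Only Sdc1 had more than 1 such probe set, and the one with the highest mean was used.

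The arrays came in 2 groups of 3. The first was wild-type primary hepatocytes of adult male C57Bl/6 mice treated with 2 µM GW4064 for 4 h, and the second was the same kind of cells given the solvent DMSO. GW4064 is a synthetic, non-steroidal FXR agonist. The William's medium of both groups held no serum, so neither received lipoproteins from serum. The series design text names 3 independent preparations, and the sample titles number the arrays of each group 1 to 3 without saying that a number marks a preparation. All values are log2 intensities after RMA, the authors' normalization, and because a probe set's brightness depends on its probes, levels are compared for one gene across arrays.

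The array values lay between 0.94 and 13.07, and the array medians differed by no more than 0.053. The cells carried hepatocyte markers on all 6 arrays, with Alb between 12.80 and 12.88 and Hpx between 12.01 and 12.33. The 9 hepatocyte genes had a list median of 10.50, and the dimmest, Asgr1, averaged 5.22 with GW4064 and 5.21 with DMSO. Summed over the 9, intensity was 22551 to 23547 with GW4064 and 23830 to 23958 with DMSO, a difference that was not tested. Markers of other cells had list medians of 3.81 for 10 macrophage genes, 4.74 for 8 endothelial genes, 3.75 for 8 stellate and fibroblast genes, 4.92 for 5 cholangiocyte genes and 3.15 for 4 lymphocyte genes. Cd68, a lysosomal marker of macrophages, lay between 8.46 and 10.02. Epcam, which defines cholangiocytes, lay between 2.60 and 2.75 and was the dimmest of the 5 cholangiocyte genes. Sox9, the brightest, averaged 7.76 with GW4064 and 7.31 with DMSO. Among the mean levels of all genes, Epcam stood at percentile 20.12, Cldn7 at 27.57, Krt7 at 59.03, Krt19 at 60.45 and Sox9 at 87.53. The low Epcam value thus does not show that cholangiocyte transcripts were absent. No marker passed between the groups in limma over all genes. Known FXR targets responded. Abcb11, which encodes the bile salt export pump, was at 8.14, 7.80 and 7.96 in the GW4064 arrays, against 5.09, 4.83 and 4.74 in the DMSO arrays (8.47-fold, 95% interval 6.94 to 10.4, limma adjusted p = 3.70e-05). Nr0b2, the FXR-induced repressor SHP, rose 5.18-fold (95% interval 4.29 to 6.27, limma adjusted p = 1.17e-04). Nr1h4, the gene of FXR itself, had a log2 change of -0.72 that did not pass (limma adjusted p = 0.0535). Of all genes tested, 11 passed upwards and 0 downwards at a limma adjusted p under 0.05 (0.0496%; 577 higher and 678 lower before adjustment), and with the replicate number as a block the total was 18, or 0.0812%.

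Lipoproteins carry triglyceride and cholesterol through the blood, wrapped in apolipoproteins that act as scaffolds, enzyme cofactors and receptor ligands. The liver loads very low density lipoprotein with fat, makes most of the protein of high density lipoprotein, and takes remnants back up through receptors and heparan sulphate proteoglycans. FXR is a nuclear receptor that binds DNA with RXR, classically at an inverted repeat of the hexamer AGGTCA, and also acts through SHP, and FXR agonists lower plasma triglyceride in mice. Of these genes, Apoc2, Apoe, Apoa5, Pltp, Vldlr, Sdc1 and Scarb1 have been reported as induced by FXR in at least one human or rodent system, and Apoa1, Apoc3 and Mttp as repressed.

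The stretches just upstream of the start sites are shown for the agonist's strongest responder, Abcb11, and for 3 lipoprotein genes whose levels differed most plainly between replicate numbers, to set beside their values. The sequences are from RefSeq on GRCm38.p6, each 250 bases long and ending at the base before the start, read 5′ to 3′. Capitals mark the stretch closest to AGGTCANTGACCT, the inverted repeat with a single spacer base, which reads the same on both strands. Where several stretches were equally close, the one nearest the start is marked.
Abcb11 upstream window, chr2:69342617-69342866, minus strand: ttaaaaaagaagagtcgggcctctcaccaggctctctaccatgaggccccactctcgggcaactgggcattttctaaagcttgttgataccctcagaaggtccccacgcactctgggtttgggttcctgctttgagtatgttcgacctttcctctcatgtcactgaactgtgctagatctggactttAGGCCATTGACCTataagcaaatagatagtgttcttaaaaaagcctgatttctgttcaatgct
Apoc2 upstream window, chr7:19677942-19678191, minus strand: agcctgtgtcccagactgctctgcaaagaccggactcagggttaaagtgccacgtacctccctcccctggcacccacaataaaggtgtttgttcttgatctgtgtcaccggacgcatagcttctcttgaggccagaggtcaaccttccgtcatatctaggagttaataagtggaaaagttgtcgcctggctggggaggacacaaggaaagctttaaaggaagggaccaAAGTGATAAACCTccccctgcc
Pltp upstream window, chr2:164857709-164857958, minus strand: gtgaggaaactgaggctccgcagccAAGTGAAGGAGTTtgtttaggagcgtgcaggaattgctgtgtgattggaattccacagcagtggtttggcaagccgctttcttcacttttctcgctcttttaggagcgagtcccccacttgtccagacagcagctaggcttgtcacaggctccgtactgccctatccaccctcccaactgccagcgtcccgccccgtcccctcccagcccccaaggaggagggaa
Mttp upstream window, chr3:138143419-138143668, minus strand: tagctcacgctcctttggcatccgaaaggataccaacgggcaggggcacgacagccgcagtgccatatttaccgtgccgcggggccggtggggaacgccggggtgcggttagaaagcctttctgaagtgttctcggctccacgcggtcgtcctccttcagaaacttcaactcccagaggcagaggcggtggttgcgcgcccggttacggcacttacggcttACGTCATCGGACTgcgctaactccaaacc

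The marked stretch of Abcb11 had 1 mismatch over the 12 fixed letters, a match that 0.0791% of 32851 mouse promoter windows of the same length held. The best stretch had 4 mismatches in Apoc2, 5 in Pltp and 4 in Mttp, where 50% of windows had at most 4 and 96.4% at most 5. RefSeq windows were found for 8 of the 10 genes, some with several start sites, and their best stretches had between 3 and 5 mismatches. The hexamer AGGTCA, searched on both strands and able to overlap the longer motif, was present in the window of Apoc2 alone among the 8 genes, and in 14% of all windows. These are matches of letters in a short window. Reported FXR elements of several of these genes lie elsewhere, and the Nr0b2 window, whose gene rose, also had 4 mismatches at best.

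None of the 10 lipoprotein genes passed the test between GW4064 and DMSO. Limma adjusted p-values ran from 0.985 to 0.999, and with the replicate number as a block from 0.693 to 0.982. Also before adjustment 0 of the 10 had a p under 0.05, with or without the block, against 5.66% and 9.13% of all genes. In each of the 10 the GW4064 and DMSO arrays overlapped, and 10.8% of all genes had groups that did not overlap. For a set of 10 genes, a count of 0 lies close to each of these shares. The log2 changes ran from -0.12 to 0.12, with 5 above 0, 5 below and a median of 0.0014, beside a median of -0.016 over all genes. The same-numbered pairs shared a sign in 2 of the 10, Scarb1 above 0 and Mttp below, and in 31.2% of all genes. The sign of 7 of the 10 turned when an array or a same-numbered pair was left out, so no direction is drawn from it.

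**Figure D1:**
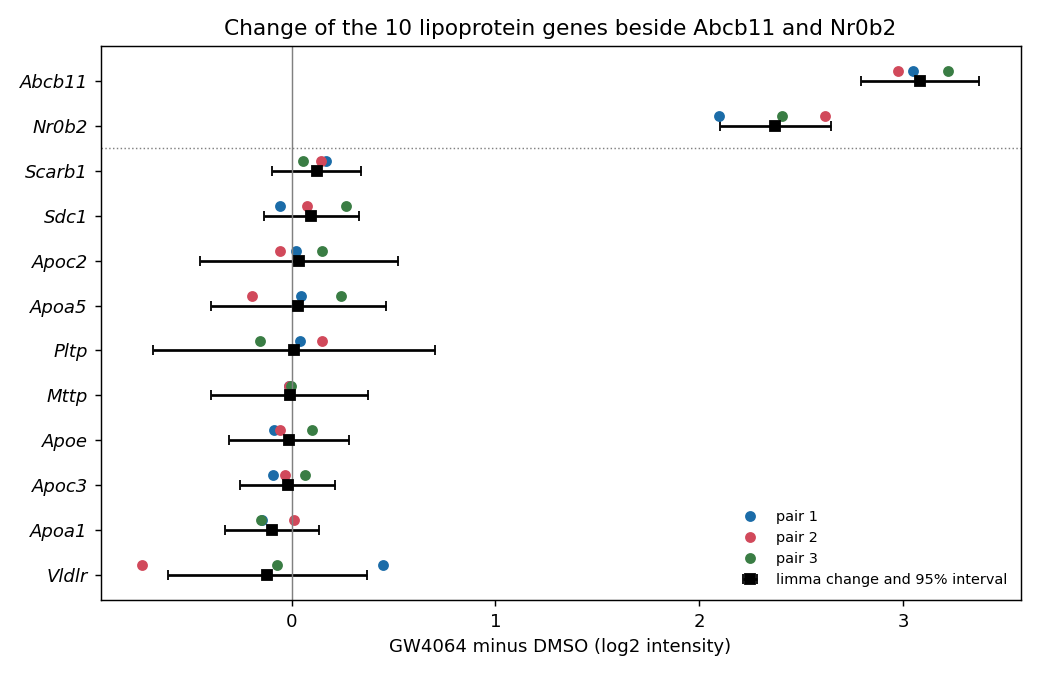
GW4064 minus DMSO on the log2 scale for Abcb11, Nr0b2 and the 10 lipoprotein genes, with limma's change and 95% interval (black, n = 3 arrays each) and the differences of same-numbered arrays (coloured points). The intervals of all 10 lipoprotein genes include 0, and those of Abcb11 and Nr0b2 lie above 2.

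Apoa1 (probe set 17516901) encodes the main protein of high density lipoprotein. It was at 11.15, 11.26 and 11.00 in the GW4064 arrays, against 11.29, 11.25 and 11.15 in the DMSO arrays. The groups overlapped, and replicate 2 was nearly the same in both. The means were 11.14 ± 0.13 with GW4064 and 11.23 ± 0.07 with DMSO (SD, n = 3 each), a fold of 0.936 with a 95% interval of 0.798 to 1.10.

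Apoa5 (probe set 17516915) encodes a scarce apolipoprotein that promotes triglyceride clearance by lipoprotein lipase. Its arrays gave 5.08, 4.38 and 4.86 with GW4064, against 5.04, 4.57 and 4.62 with DMSO. Pairs 1, 2 and 3 of equal number differed by 0.045, -0.193 and 0.242, on both sides of 0. The fold was 1.02 (95% interval 0.759 to 1.38).

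Apoc2 (probe set 17487361) encodes the cofactor that lipoprotein lipase needs, and Apoc3 (probe set 17526623) an inhibitor of that lipase and of remnant uptake. Apoc2 was at 8.73, 9.27 and 8.71 in the GW4064 arrays, against 8.71, 9.32 and 8.56 in the DMSO arrays. Replicate 2 stood above the others in both groups, and the treated and control arrays of a number lay close together. Apoc2 had a fold of 1.03 (95% interval 0.734 to 1.44). Apoc3 was at 6.80, 6.67 and 6.70 in the GW4064 arrays, against 6.90, 6.71 and 6.64 in the DMSO arrays, a fold of 0.986 (95% interval 0.840 to 1.16). The difference Apoc2 minus Apoc3 within an array averaged 2.17 ± 0.36 with GW4064 and 2.12 ± 0.43 with DMSO (log2 units, SD, n = 3 each), a shift of 0.057, with 0.112, -0.022 and 0.082 in pairs 1, 2 and 3. The size of this difference depends on both probe sets' brightness, and only its shift between arrays is read here. A further probe set shared by Apoc4 and Apoc2, and therefore assigned to neither, had a log2 change of 0.13 (SE 0.21).

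Apoe (probe set 17487381) encodes the ligand through which remnants bind the low density lipoprotein receptor family and heparan sulphate. The GW4064 arrays read 6.69, 6.66 and 6.45, against 6.77, 6.71 and 6.35 in the DMSO arrays. Replicate 3 was the lowest in both groups. The fold was 0.991 (95% interval 0.807 to 1.22).

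Apoa1, Apoc3 and Apoa5 lie in a gene cluster on chromosome 9 that also holds Apoa4, and Apoe and Apoc2 lie in a cluster on chromosome 7 that also holds Apoc1. Apoa4, a chylomicron and high density lipoprotein component, had a log2 change of 0.04 (SE 0.19), and Apoc1, an inhibitor of remnant uptake, one of 0.01 (SE 0.24), so neither neighbour passed (limma adjusted p = 0.998 and 0.999). Within the chromosome 9 cluster Apoc3, Apoa4 and Apoa5 were highest on both replicate 1 arrays and Apoa1 was not. Within the chromosome 7 cluster Apoe, Apoc1 and Apoc2 were all lowest on both replicate 3 arrays.

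Pltp (probe set 17394297) encodes the phospholipid transfer protein, which moves surface phospholipid onto high density lipoprotein. It was at 4.66, 5.50 and 4.32 in the GW4064 arrays, against 4.62, 5.35 and 4.47 in the DMSO arrays. As with Apoc2, replicate 2 was the highest in both groups. The means were 4.82 ± 0.61 with GW4064 and 4.81 ± 0.47 with DMSO (SD, n = 3 each). The fold was 1.01, and its 95% interval of 0.623 to 1.63 was the widest of the 10 in the fit without the block. The SE of its log2 change was 0.31, against 0.09 where the replicate number was a block. The same-numbered pairs 1, 2 and 3 differed by 0.039, 0.150 and -0.154.

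Mttp (probe set 17410636) encodes the large subunit of the microsomal triglyceride transfer protein, which loads lipid onto apolipoprotein B. The GW4064 arrays read 8.69, 8.41 and 8.15, against 8.70, 8.42 and 8.15 in the DMSO arrays. The treated and control arrays of each number were almost identical, with pair differences of -0.011, -0.013 and -0.0019 (SD 0.0060, n = 3 pairs). Replicate numbers differed by up to 0.543 between their means. Its fold was 0.994 (95% interval 0.761 to 1.30 without the block and 0.875 to 1.13 with it).

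**Figure D2:**
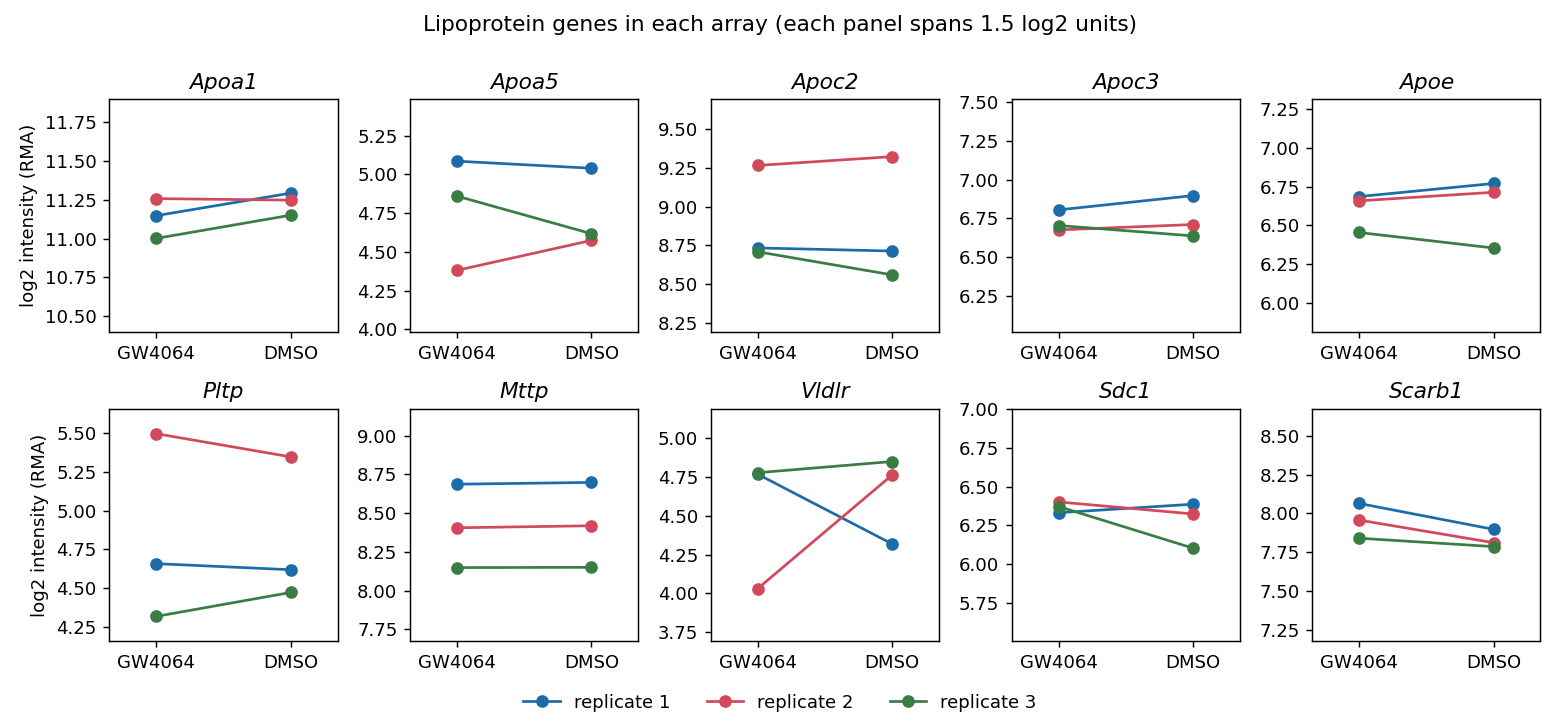
Log2 intensity of each of the 10 lipoprotein genes on the 6 arrays, with GW4064 left of DMSO and lines joining arrays of the same replicate number; every panel spans 1.5 log2 units. The Mttp lines run nearly flat at separate heights, the replicate 2 lines of Apoc2 and Pltp lie above the others, and the Vldlr lines of replicates 1 and 2 cross.

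Vldlr (probe set 17358422) encodes the very low density lipoprotein receptor, which is scarce in normal liver. It was at 4.77, 4.03 and 4.78 in the GW4064 arrays, against 4.32, 4.76 and 4.85 in the DMSO arrays. The pairs pointed opposite ways, with differences of 0.449, -0.732 and -0.072 in pairs 1, 2 and 3, the widest spread of the 10 (SD 0.592). The fold of 0.921 had a 95% interval of 0.657 to 1.29.

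Sdc1 (probe set 17273948) encodes syndecan-1, the main heparan sulphate proteoglycan of the hepatocyte surface that binds remnants. Its arrays gave 6.33, 6.40 and 6.37 with GW4064, against 6.39, 6.32 and 6.10 with DMSO. The DMSO array of replicate 3 was the lowest, and the other arrays lay close together. The fold was 1.07 (95% interval 0.910 to 1.26). The second Sdc1 probe set, 17547680, at a lower intensity, read 4.22, 4.22 and 4.40 with GW4064, against 3.96, 4.35 and 3.97 with DMSO, a log2 change of 0.19 (SE 0.13) that also did not pass (limma adjusted p = 0.970 with all probe sets tested).

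Scarb1 (probe set 17452957) encodes SR-BI, the receptor that takes cholesteryl ester from high density lipoprotein. It was at 8.06, 7.96 and 7.84 in the GW4064 arrays, against 7.90, 7.81 and 7.79 in the DMSO arrays. It was higher with GW4064 in pairs 1, 2 and 3, by 0.167, 0.146 and 0.054, which 12.6% of all genes also were. The groups overlapped, since the treated array of replicate 3 lay below the control array of replicate 1. The fold was 1.09 (95% interval 0.934 to 1.27), and among the 10 genes Scarb1 had the smallest unadjusted p, 0.242 (limma adjusted p = 0.985).

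The intervals state which changes the 6 arrays leave possible. Without the block, a rise of more than 1.30-fold lay outside the interval of Apoa1, Apoc3, Apoe, Sdc1, Scarb1, Mttp and Vldlr, and the intervals of Apoa5, Apoc2 and Pltp reached up to 1.38, 1.44 and 1.63. Of the 3 genes reported as repressed, Apoa1, Apoc3 and Mttp, the lower ends were 0.798, 0.840 and 0.761. Pltp and Vldlr had the lowest ends, at 0.623 and 0.657. With the replicate block the interval of Pltp narrowed to 0.866 to 1.17, Vldlr had the widest of the 10 at 0.652 to 1.30, and those of the other genes lay between 0.817 (Apoa1) and 1.25 (Sdc1).

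Differences between replicate numbers were also measured. In a limma F test between replicate numbers, with the group as a term, Pltp passed (adjusted p = 0.0302), 1 of the 10, and 1.07% of all genes passed. Its means over both arrays of replicates 1, 2 and 3 were 4.64, 5.42 and 4.39. Apoc2 had replicate means of 8.72, 9.29 and 8.63 and did not pass (adjusted p = 0.0728), nor did Mttp with 8.69, 8.41 and 8.15 (adjusted p = 0.119). Before adjustment 5 of the 10 had a p under 0.05 in the limma F test, namely Pltp, Apoc2, Mttp, Apoa5 and Apoe, against 14.8% of all genes. All 10 lay above the median level of all genes, and no share matched for level was computed. Pltp did not pass without replicate 2 or without replicate 3, nor with all probe sets of the table tested, where no probe set passed.

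The median of the largest gap between replicate means was 0.371 over the 10 genes and 0.188 over all genes, and the median size of the treatment difference was 0.034 and 0.082. The gap exceeded the treatment difference in 10 of the 10 genes and in 78.8% of all genes. A range over 3 means tends to be wider than a difference of 2 means, so the share over all genes is the measure to read it against. Of the markers of other cells, 1 of 10 macrophage genes (Cd68) and 0 of 8 endothelial, 8 stellate, 5 cholangiocyte and 4 lymphocyte genes passed the limma F test between replicate numbers. The summed intensity of the 8 endothelial markers was 327 and 323 on the GW4064 and DMSO arrays of replicate 2, against 231 to 260 on the others, the arrays on which Pltp and Apoc2 were lower. Among these endothelial markers, Cdh5, Eng, Lyve1, Pecam1 and Stab2 were highest on both replicate 2 arrays, and Kdr, Clec4g and Oit3 were not. The summed intensity of the 10 macrophage markers was 473 and 496 on the GW4064 and DMSO arrays of replicate 2 and 894 to 1148 on the others. Cd68 carried this difference. Without it, the sum of the other 9 macrophage markers went the opposite way. It was 121 and 126 on the GW4064 and DMSO arrays of replicate 2 and 99.0 to 117 on the others. These 9 did not move together. Adgre1, C1qa, C1qb and Vsig4 were highest on both replicate 2 arrays, while Timd4 was lowest on both (2.58 with GW4064 and 2.72 with DMSO). Adgre1 was only just so with DMSO, at 3.027 against 3.026 on replicate 3. Marco was highest on the DMSO array of replicate 2 (4.61) and on the GW4064 array of replicate 3 (4.63). Csf1r, Clec4f and Cd5l were lowest on the GW4064 array of replicate 2 (3.53, 3.60 and 2.48). Among the DMSO arrays, however, replicate 2 was highest for Csf1r and Clec4f (3.99 and 4.06) and in between for Cd5l (3.04). The Kupffer cell markers Vsig4, Timd4 and Cd5l lay under the 25th percentile of all genes, and Clec4f stood at percentile 42.88. The part of these cells in the differences between replicate numbers was not tested, and in such bulk samples fewer cells of a type and less RNA per cell cannot be told apart.

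**Figure D3:**
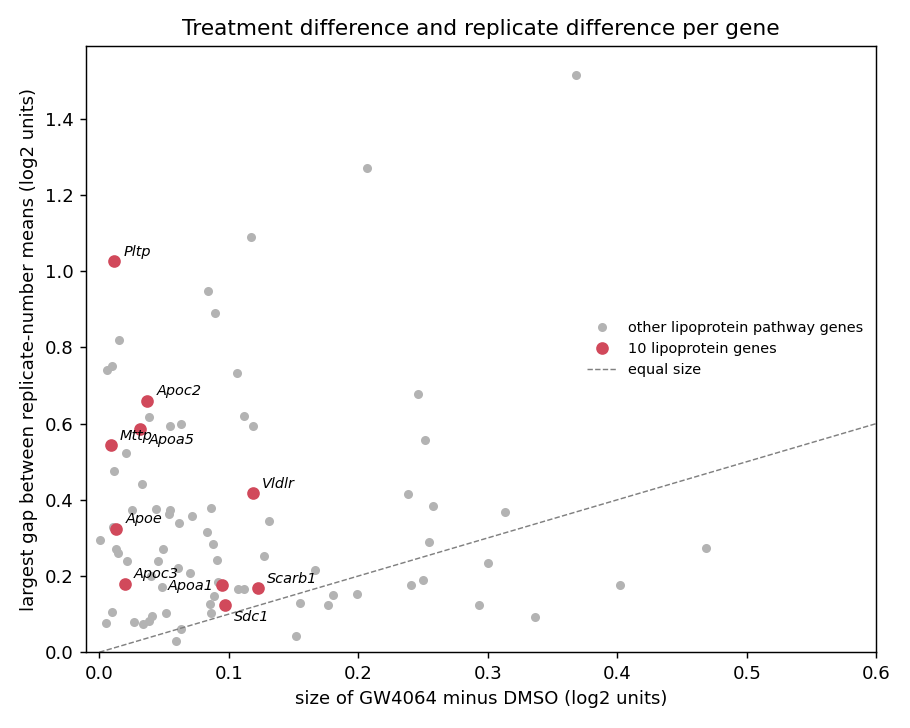
Size of the GW4064 minus DMSO difference (horizontal, log2 units) and largest gap between the means of replicate numbers 1, 2 and 3 (vertical, log2 units) for the 10 lipoprotein genes (red) and 74 other lipoprotein pathway genes (grey), with a dashed line of equal size. All 10 red points lie above the line, with Pltp highest at 1.03.

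Other genes of lipoprotein metabolism were read from 5 lists, 85 symbols in all, of which 74 had a tested gene and 11 found none. Of these 74, 0 passed in limma over all genes with or without the block, 27 were above 0 and 47 below, and the median log2 change was -0.044, beside -0.016 over all genes. Before adjustment 5 were higher and 1 lower at a p under 0.05 without the block, 8.11% of them against 5.66% of all genes. The balance of 5 to 1 was not kept with the replicate block, where 9.13% of all genes had such a p. Apobec1, Lrp8, Ext1, Abcg5, Abcg8 and Ces1d were then higher, and Apon, Dgat2, Angptl4, Angptl8, Cd36, Hs2st1 and Sdc4 lower. Together these genes were a larger share of the 74 than the 9.13% of all genes. The lists were chosen with earlier results of these data known, so this is a description and no test. The groups did not overlap in 10 of the 74, 4 with GW4064 above and 6 below, which is 13.5% of them against 10.8% of all genes.

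Among 13 other apolipoprotein genes, 5 were above 0 and 8 below, and their list also holds Apobec1 and the receptor gene Apobr. Apob, the structural protein of very low density lipoprotein, was at 11.77, 11.82 and 11.78 in the GW4064 arrays, against 11.90, 11.82 and 11.83 in the DMSO arrays, a log2 change of -0.06 (SE 0.09). Apobec1, the enzyme that edits the Apob transcript, read 8.42, 8.41 and 8.22 with GW4064, against 7.87, 8.07 and 8.10 with DMSO. All 3 treated arrays lay above all 3 controls, with a log2 change of 0.34 (SE 0.11, limma adjusted p = 0.751). Apon had a log2 change of -0.25 (SE 0.21), and Apoh, the phospholipid-binding apolipoprotein H, one of -0.12 (SE 0.18).

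Of 16 assembly and secretion genes, 6 were above 0 and 10 below, with 0 at an unadjusted p under 0.05 in the fit without the block. Dgat2, which makes the triglyceride that Mttp loads, came closest, at 7.38, 7.41 and 7.34 in the GW4064 arrays, against 7.48, 7.80 and 7.58 in the DMSO arrays. Its groups did not overlap, and its log2 change was -0.24 (SE 0.11, limma adjusted p = 0.881). The transcription factor gene Creb3l3, which controls several apolipoprotein genes, had 0.17 (SE 0.11), the sorting receptor gene Sort1 -0.11 (SE 0.10) and the COPII coat gene Sec24a -0.09 (SE 0.10).

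Lipases and their regulators split evenly, with 5 of 10 above 0 and 5 below. The 2 angiopoietin-like inhibitors of lipoprotein lipase that were named both had values below 0, Angptl4 with a log2 change of -0.26 (SE 0.15) and Angptl8 with -0.25 (SE 0.19), each lower in all 3 same-numbered pairs, as were 18.6% of all genes, and neither passed (limma adjusted p = 0.951 and 0.977). The endothelial lipase gene Lipg had 0.25 (SE 0.15) and the proprotein convertase gene Pcsk5 -0.15 (SE 0.11).

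Of 20 clearance receptor and proteoglycan genes, 6 were above 0 and 14 below. Sdc4, a syndecan related to Sdc1, was at 9.80, 9.74 and 9.87 in the GW4064 arrays, against 10.15, 10.12 and 10.34 in the DMSO arrays. Every treated array lay below every control, with a log2 change of -0.40 (SE 0.10), the smallest unadjusted p of the 74 genes and a limma adjusted p of 0.569. Ext1, which polymerises the heparan sulphate chains that syndecans carry, read 9.11, 8.89 and 8.65 with GW4064, against 8.70, 8.59 and 8.42 with DMSO. Its log2 change was 0.31 (SE 0.13, limma adjusted p = 0.866), and that of Hs2st1, a sulphotransferase of the same chains, -0.25 (SE 0.12). Lrp6 had -0.20 (SE 0.10).

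Of 13 genes of high density lipoprotein formation and sterol efflux, 4 were above 0 and 9 below. An unadjusted p under 0.05 in the limma fit without the block was reached by 3, all higher, which is 23.1% of that list. Over all genes 5.66% had such a p in either direction, and 2.6% were higher. The lists were chosen with earlier results of these data known, so this share is a description and no test of the list. Abcg5 and Abcg8 encode both subunits of the sterol exporter, and Ces1d is a carboxylesterase gene. Abcg5 was at 5.79, 5.74 and 5.36 in the GW4064 arrays, against 5.18, 5.23 and 5.07 in the DMSO arrays (log2 change 0.47, SE 0.13, limma adjusted p = 0.641). Abcg8 was at 5.61, 5.74 and 5.64, against 5.27, 5.39 and 5.46 in DMSO (log2 change 0.29, SE 0.10). The treated and control arrays of both did not overlap. Ces1d had 0.30 (SE 0.11) at a low level of 2.46 ± 0.16 with GW4064 and 2.16 ± 0.08 with DMSO (SD, n = 3 each), and Bmp1, the protease that matures the Apoa1 protein, -0.18 (SE 0.09).

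**Figure D4:**
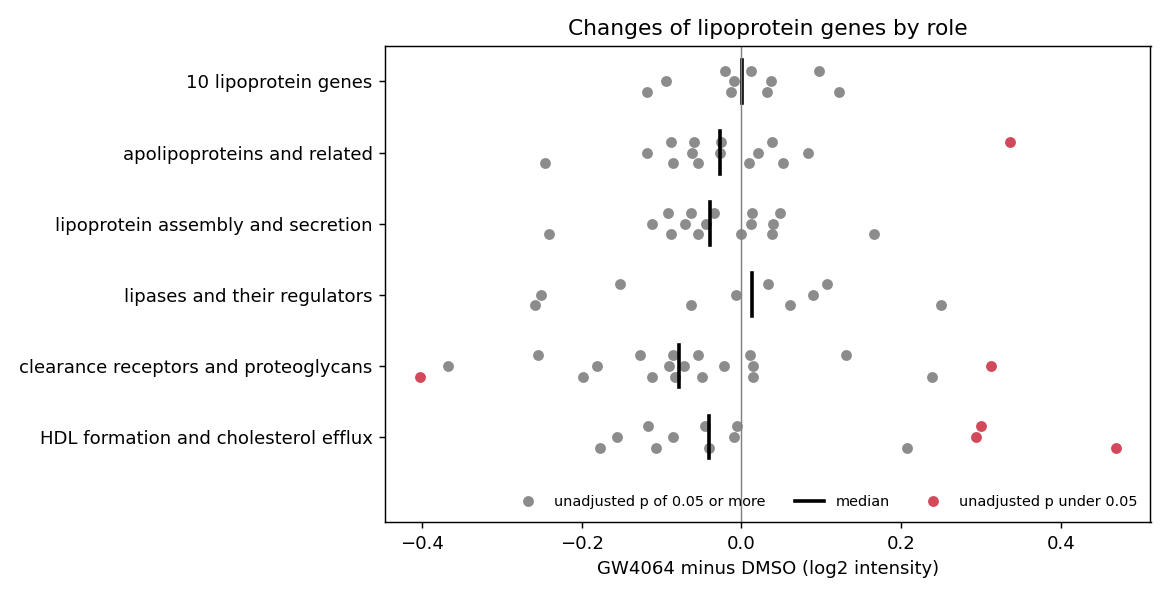
GW4064 minus DMSO (log2 intensity) of the 10 lipoprotein genes and of the 5 lists, a point per gene with the list median as a black bar and genes at an unadjusted limma p under 0.05 in red. The 10 genes lie between -0.12 and 0.12, and the lists reach from -0.40 (Sdc4) to 0.47 (Abcg5).

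Replicate numbers separated 5 of the 74 pathway genes in the limma F test, which is 6.76% of them against 1.07% of all genes. Most of the 74 lay above the median level of all genes. Once genes under the median were dropped, 669 genes passed, against 238 without that filter. The share over all genes is thus not matched for level, and no matched share was computed. Lcat, the cholesterol-esterifying enzyme of high density lipoprotein, had means of 8.18, 7.57 and 6.91 over the arrays of replicates 1, 2 and 3 (adjusted p = 0.0208). Pon1, an esterase that rides on the same particle, had 8.04, 7.77 and 6.95 (adjusted p = 0.0273), and Apoa2, its second major protein, 10.83, 10.56 and 9.88 (adjusted p = 0.0302). These 3 were lowest in replicate 3, where 8 of the 10 genes above, Pltp and Apoc2 included, also had their lowest mean, as did 36.6% of all genes. The fatty acid and lipoprotein receptor gene Cd36 was highest in replicate 2, with 6.91, 8.33 and 6.82 (adjusted p = 0.0122). Npc1, which exports cholesterol from lysosomes, was highest in replicate 3, with 8.55, 8.62 and 9.29 (adjusted p = 0.0469). Among the hepatocyte markers Cyp2e1 and Tat also differed between replicate numbers (adjusted p = 0.0165 and 0.0288), as did Cd68 among the macrophage markers (adjusted p = 0.0141), and what these differences share with those of the lipoprotein genes was not tested. With all probe sets of the table tested, none of these calls was kept (adjusted p = 0.214 to 0.235). Of the 74 pathway genes, 7, 4 and 1 passed without replicates 1, 2 and 3. Of the genes named here, Cyp2e1 did not pass without replicate 1 (adjusted p = 0.255), and Cd36, Npc1 and Cd68 did not without replicate 2 (0.0797 to 0.74). Without replicate 3, Lcat, Pon1, Apoa2, Npc1, Tat and Cd68 did not pass (adjusted p = 0.0642 to 0.876).

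For the 3 of the 10 genes with the smallest unadjusted p, the most similar profiles over the 6 arrays were looked up among 11089 other genes above the median level. Scarb1 was nearest to Anapc15, Defb25 and Ext1 (Pearson r 0.998, 0.988 and 0.983), Sdc1 to Tomm22, 1700028B04Rik and Chpt1 (0.994, 0.985 and 0.984), and Apoa1 to Kbtbd7, Cryzl2 and Wasf1 (0.988, 0.987 and 0.983). With 6 arrays that share replicate numbers and so many genes to choose from, such values are a description only.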

How the data were processed

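The 6 RNA samples were biotin-labelled and hybridised to 1-colour Affymetrix MoGene-2_0-st arrays, per the labels' protocols. The authors deposited log2 intensities that were normalized with RMA. Partek is named too, and no version of either is given, per the submitters' processing notes. The log2 scale was inferred from the range of the values. Of 41345 probe sets, 23521 carry exactly 1 gene symbol in the platform annotation, and keeping the brightest of each gene left 22180 genes. The number of arrays limits the precision.

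GW4064 and DMSO were compared with limma 3.58.1 (lmFit, eBayes) in R 4.3.3, without a block or a filter on dim genes, and Benjamini-Hochberg adjustment ran over all genes at a threshold of 0.05. A permutation of 3 against 3 arrays allows no two-sided p under 0.1, so none was run. Replicate numbers were compared with limma's F test. Deviations of same-numbered arrays from their group means correlated at 0.26, 0.34 and 0.45, over the 0.1 set for pairing, and the numbers come from the titles. The labels state no paired test, so the main fit had no block and the fit with the block stood as an alternative. The labels name no separate animals per replicate, so p-values measure the spread between these arrays. The fits were tested on simulated data.

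The 10 genes and the lists were chosen with earlier results of these data known. Named genes are the 10, Abcb11, Nr0b2, Nr1h4, cluster neighbours, up to 4 genes per list with the smallest p, and 3 similar profiles for each of 3 genes; pathway genes and markers that differed between replicate numbers were added after their values were seen. Alternatives were the replicate block, 2 scalings, 2 filters, eBayes with trend, 2 uses of the probe sets, and arrays or pairs left out.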

Additional observations from a re-analysis of the deposited data

How the results depend on the processing

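The 10 lipoprotein genes were recomputed under 17 alternatives. In 0 of the 170 values did a gene pass between GW4064 and DMSO, with adjusted p-values of 0.693 or more, and 139 kept the sign. Under quantile normalization the changes of Apoc3, Apoe and Mttp turned to 0.017, 0.021 and 0.014, and with each array centred on its median those of Apoe and Mttp turned to 0.0018 and 0.0063, all close to 0. With arrays or same-numbered pairs left out, the changes ran from -0.12 to 0.23 for Apoa5, -0.14 to 0.27 for Apoc2, -0.075 to 0.054 for Apoc3, -0.14 to 0.066 for Apoe, -0.32 to 0.28 for Pltp, -0.15 to 0.13 for Mttp and -0.40 to 0.19 for Vldlr. For Apoa1, Sdc1 and Scarb1 the sign held, at -0.16 to -0.03, 0.01 to 0.17 and 0.07 to 0.18.

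The total of called genes was 11 without the replicate block, 18 with the replicate block, 2 with all probe sets of the table tested, and 2 to 5 with arrays or pairs left out, and 0 of the 10 lipoprotein genes were called each time. Between replicate numbers, 238 genes and 1 of the 10 passed. Without genes under the median these were 669 and 3, with eBayes trend 1759 and 3, the 3 being Pltp, Apoc2 and Mttp in both. With all probe sets tested, which adds many unnamed ones, they were 0 and 0. With a pair left out they were 16 to 347 and 0 to 2. The F test with all pairs has 1 array per group and number, so this comparison depends on how the variance is pooled.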
